A study of Homo sapiens with 12 samples.

Results

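The stretch of chromosome 14 that holds the transcription factor genes NKX2-1, NKX2-8 and PAX9 and the carrier gene SLC25A21 was examined for H3K27ac, a histone acetylation that marks promoters and enhancers in use. Its members were the called H3K27ac peaks that overlap chr14:36780000-37660000 (hg19, as are all peak positions), a window of 880 kb. It held 98 of the 190767 peaks of 6 lists, and these merged into 49 of 58994 regions. The window was chosen by the called peaks themselves, which differ between the lines here, so counts of peaks and of regions of a single line are a description and were not tested.

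The libraries came from 3 human pancreatic ductal adenocarcinoma lines, BxPC3, Panc327 and SUIT2, all untreated and grown under standard conditions, with no engineered allele named in the labels. Each line gave 2 H3K27ac ChIP-seq libraries, with a peak list each, and 2 input libraries, which were not analysed here on their own; whether the peak caller took them as its control is not stated. BxPC3 was derived from a primary tumour of the pancreas and SUIT2 from a liver metastasis. Whether the 2 replicates of a line are separate cultures is not stated, and every SD below is the spread between libraries, which may be technical. The lines were not checked against marker genes, since no gene positions on hg19 were used beyond the approximate ones that define the window. These put NKX2-1 at about 36.99 Mb, NKX2-8 at about 37.05 Mb, PAX9 at about 37.13 to 37.15 Mb and SLC25A21 at about 37.15 to 37.64 Mb.

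NKX2-1 is a homeodomain transcription factor that specifies lung and thyroid from the foregut endoderm and takes part in forming the forebrain, and it is used as a marker of lung adenocarcinoma. NKX2-8 is a related homeodomain factor, and PAX9 is a paired-box factor of the pharyngeal pouches, teeth and palate. The genes lie next to each other and are known to be amplified together in some lung cancers. SLC25A21 encodes a mitochondrial carrier of oxodicarboxylates. In the RefSeq gene order of GRCh38.p14, the protein-coding neighbours are MBIP on the NKX2-1 side and MIPOL1, then FOXA1, on the SLC25A21 side.

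The sequences before the transcript starts are shown because the peaks described here lie at or near these genes. They are the 250 bases upstream of each start, 5′ to 3′ on the gene's strand, from RefSeq (GRCh38.p14). All 4 genes had an entry, with 6 starts in all, of which 5 are printed. Capitals mark matches, on either strand, to CAAGTG (a core bound by NKX2 factors), TGTTTAC (a core bound by forkhead FOXA factors) and TGANTCA (the AP-1 motif), and no matches overlapped.
NKX2-1 first start, chr14:36520233-36520482, minus strand: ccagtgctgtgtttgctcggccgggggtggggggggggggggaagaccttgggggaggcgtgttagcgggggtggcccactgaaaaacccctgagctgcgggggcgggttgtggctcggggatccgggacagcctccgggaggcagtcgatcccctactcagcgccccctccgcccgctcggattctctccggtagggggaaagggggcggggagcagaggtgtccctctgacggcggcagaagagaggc
NKX2-1 second start, chr14:36519557-36519806, minus strand: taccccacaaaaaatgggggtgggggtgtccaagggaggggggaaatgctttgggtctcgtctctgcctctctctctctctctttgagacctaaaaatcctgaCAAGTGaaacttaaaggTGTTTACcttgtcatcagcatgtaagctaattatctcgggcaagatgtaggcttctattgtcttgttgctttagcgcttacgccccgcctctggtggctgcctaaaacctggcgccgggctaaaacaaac
NKX2-8, chr14:36582615-36582864, minus strand: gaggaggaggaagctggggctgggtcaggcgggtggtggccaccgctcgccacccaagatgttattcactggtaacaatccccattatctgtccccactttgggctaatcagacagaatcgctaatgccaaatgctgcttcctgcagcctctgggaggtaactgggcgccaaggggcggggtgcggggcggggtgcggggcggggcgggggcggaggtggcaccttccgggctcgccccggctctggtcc
PAX9 first start, chr14:36657318-36657567, plus strand: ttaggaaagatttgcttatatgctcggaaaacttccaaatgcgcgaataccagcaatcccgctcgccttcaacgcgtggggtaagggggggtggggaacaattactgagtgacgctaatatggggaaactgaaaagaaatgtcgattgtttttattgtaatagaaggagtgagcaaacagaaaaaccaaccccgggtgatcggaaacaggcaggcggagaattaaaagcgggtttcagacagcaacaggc
SLC25A21, chr14:37172607-37172856, minus strand: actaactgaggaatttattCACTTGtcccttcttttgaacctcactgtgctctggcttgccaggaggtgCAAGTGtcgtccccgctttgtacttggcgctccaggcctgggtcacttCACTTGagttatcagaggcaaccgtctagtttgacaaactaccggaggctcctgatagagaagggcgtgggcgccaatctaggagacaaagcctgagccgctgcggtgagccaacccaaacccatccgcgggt
These coordinates belong to GRCh38.p14 and cannot be set against the hg19 positions of the peaks. The SLC25A21 sequence held 3 matches to CAAGTG. Of the 35116 promoter sequences cut to the same length, 9.5% held at least 1 such match and 9 sequences held 3 or more. The second NKX2-1 start held 1 match to CAAGTG and 1 to TGTTTAC, which 2.98% of the sequences hold. No printed sequence held TGANTCA, found in 6.57%. The first NKX2-1 start was the richest in G and C, at 70.8% against a median of 58% over all sequences. The first PAX9 start was the poorest, at 46.8%, yet its ratio of observed to expected CpG was 1.00 against a median of 0.558. A match describes letters in these windows and not a site of binding.

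The 3 lines marked different parts of the domain. BxPC3 carried a dense series of peaks along SLC25A21, 1 peak at NKX2-1 in both libraries, and no peak at PAX9 or NKX2-8. Panc327 carried peaks at and just before PAX9 in both libraries, and in replicate 1 also at NKX2-1 and NKX2-8. SUIT2 had 1 peak near each edge of the window and none between them. BxPC3 replicate 1 had 36 peaks in the domain and replicate 2 had 42, the Panc327 libraries 9 and 7, and both SUIT2 libraries 2. The mean number of peaks was 39 ± 4.24 for BxPC3, against 8 ± 1.41 for Panc327 and 2 ± 0 for SUIT2 (SD, n = 2). The lines did not overlap in these counts, by which the window was chosen. The whole lists held 34113 and 38335 peaks for BxPC3, 27776 and 29139 for Panc327 and 29983 and 31421 for SUIT2. There the lines did not overlap either. The bases under peaks of the domain followed the order of its peak counts, with 57.5 and 67.3 kb for BxPC3, 9.67 and 9.48 kb for Panc327 and 3.17 and 3.58 kb for SUIT2. With 2 libraries against 2, an exact two-sided permutation test cannot give a p under 0.333, and the lines are compared by their values only.

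**Figure D1:**
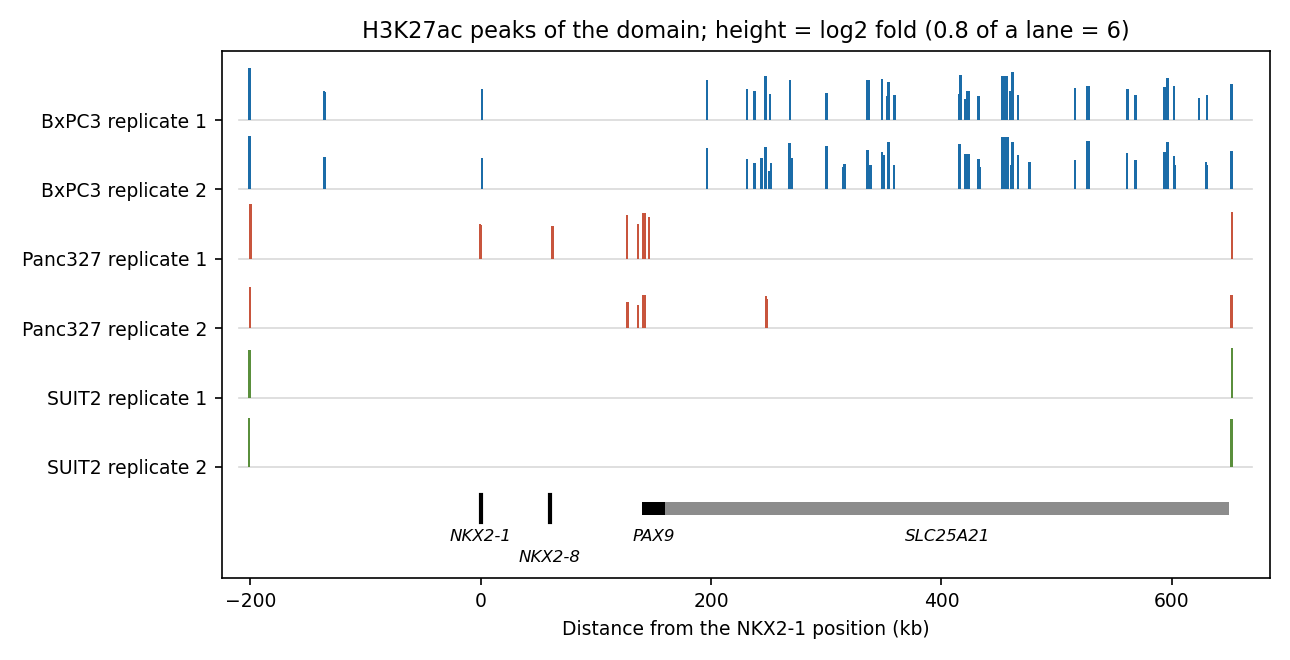
Called H3K27ac peaks of the 6 libraries along the domain; the x axis is the distance in kb from the NKX2-1 position, each bar is a peak (drawn at least 2 kb wide) and its height is the log2 of the authors' fold over local background. BxPC3 peaks fill the SLC25A21 stretch, Panc327 peaks sit at PAX9, and SUIT2 has 2 peaks, near the edges.

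Of the 49 regions, 30 were marked in BxPC3, meaning called in both of its libraries. In 27 of these no library of Panc327 or SUIT2 had a peak, which is 90% of the regions marked in BxPC3 here and 26.0% over the genome, and nothing is read from this difference, since the same calls chose the window. Panc327 marked 5 regions, 3 of them alone (60% here, 17.2% over the genome). SUIT2 marked 2 regions, both called in all 6 libraries, and 0 alone (28.5% over the genome). The regions called in all 6 libraries made up 4.08% of the domain's regions and 21.6% of the genome's. No region marked in 2 of the lines lacked a peak in the other one: this was 0 of 2 for BxPC3, 0 of 2 for Panc327 and 0 of 2 for SUIT2, where the genome gave 5.09%, 14.7% and 14.8%. The rest comprised 1 region that was marked in BxPC3 and called in Panc327 replicate 2, 9 in BxPC3 replicate 2 alone, 3 in BxPC3 replicate 1 alone and 4 in Panc327 replicate 1 alone. Regions called in 1 of the 2 libraries made up 28.6% of those called in BxPC3 (18.1% over the genome) and 50% of those called in Panc327 (38.5%). In SUIT2 there were 0 (14.1%). Without Panc327 replicate 2, 9 regions were marked in Panc327 and 7 of them in no other line. Without Panc327 replicate 1 these counts were 6 and 3. A single remaining library suffices for a mark, which by itself raises such counts. The BxPC3 counts rose too, to 42 and 39 without its replicate 1 and to 36 and 33 without its replicate 2.

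The region nearest to NKX2-1 in Panc327 was seen in replicate 1 alone. That library had peaks at 36988064-36988568 and 36989240-36989613, with folds of 13.4 and 12.9 over local background. The fold is the peak caller's ratio of ChIP reads to background at the summit, as the authors' lists give it, and it ranks peaks within a list. The summits held 32 and 31 overlapping reads, and both peaks lay in the lower part of the list, at percentiles 26.4 and 24.6 by −log10 q. BxPC3 had a different peak there, at 36989982-36990584 as the union of both libraries. Its folds were 9.98 and 10.7 and its pile-ups 38 and 54 reads in replicates 1 and 2. It also lay in the lower part of those lists, at percentiles 24.3 and 34.3. It touched neither Panc327 peak and was a region of BxPC3 alone where merging needs a shared 1 bp. With peaks within 1 kb merged, it joined both Panc327 peaks and was no longer of BxPC3 alone. Panc327 replicate 2 and both SUIT2 libraries had no peak within 10 kb of the NKX2-1 position.

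At NKX2-8, Panc327 replicate 1 had a peak at 37051226-37051889 with a fold of 11.4, a pile-up of 27 reads and a percentile of 18.1. No other library had a peak within 10 kb of the NKX2-8 position. The 40 kb between the NKX2-1 and NKX2-8 surroundings held no peak in any of the 6 libraries.

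PAX9 was the one gene of the domain that both Panc327 libraries marked and that BxPC3 and SUIT2 did not. The widest region there, at 37130206-37133462 (3257 bp), had folds of 31.7 and 11.7 and pile-ups of 77 and 44 reads in Panc327 replicates 1 and 2. It was preceded by a region at 37116031-37117607, with folds of 26.8 and 7.31 (92 and 37 reads), and one at 37125255-37126515, with folds of 13.4 and 5.58 (39 and 28 reads). Another peak, at 37135333-37136382, was called in replicate 1 alone, with a fold of 22.5 and 66 reads. Peaks covered 20.7% of the 20 kb PAX9 segment in Panc327 replicate 1 and 15.6% in replicate 2, against 0% in the other 4 libraries. All 3 shared regions were lower in replicate 2. In order of position they stood at percentiles 56.2, 31.0 and 55.1 in replicate 1 and 24.7, 5.84 and 44.9 in replicate 2. At a −log10 q of at least 20, 2 regions of Panc327 alone were left in the domain.

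Joined across gaps of up to 12.5 kb, the Panc327 peaks around PAX9 formed a cluster of 4 peaks over 20.4 kb in replicate 1 and of 3 peaks over 16962 bp in replicate 2. By covered bases it ranked 726 among the 16365 clusters of replicate 1 (4.44%) and 2052 among the 17104 of replicate 2 (12%). The cluster thus ranked higher among its peers in the first library.

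SLC25A21 held most of the BxPC3 peaks. Of the domain's peaks, 31 (86.1%) in replicate 1 and 37 (88.1%) in replicate 2 had their summit in the 480 kb of SLC25A21 that end 10 kb before its upper end. They covered 52.4 and 61.8 kb, or 10.9% and 12.9% of that stretch. Panc327 replicate 2 had 2 peaks there, covering 1.39 kb, and Panc327 replicate 1 and both SUIT2 libraries had 0. Of the 27 regions of BxPC3 alone, 24 lay in this stretch, which is 480 of the window's 880 kb. That share is near the 86.1% and 88.1% for all BxPC3 peaks of the domain, so it sets these regions apart in no way. Neighbouring BxPC3 summits were a median of 6.78 and 6.49 kb apart. Whether a peak lies in an exon or an intron was not assigned.

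**Figure D2:**
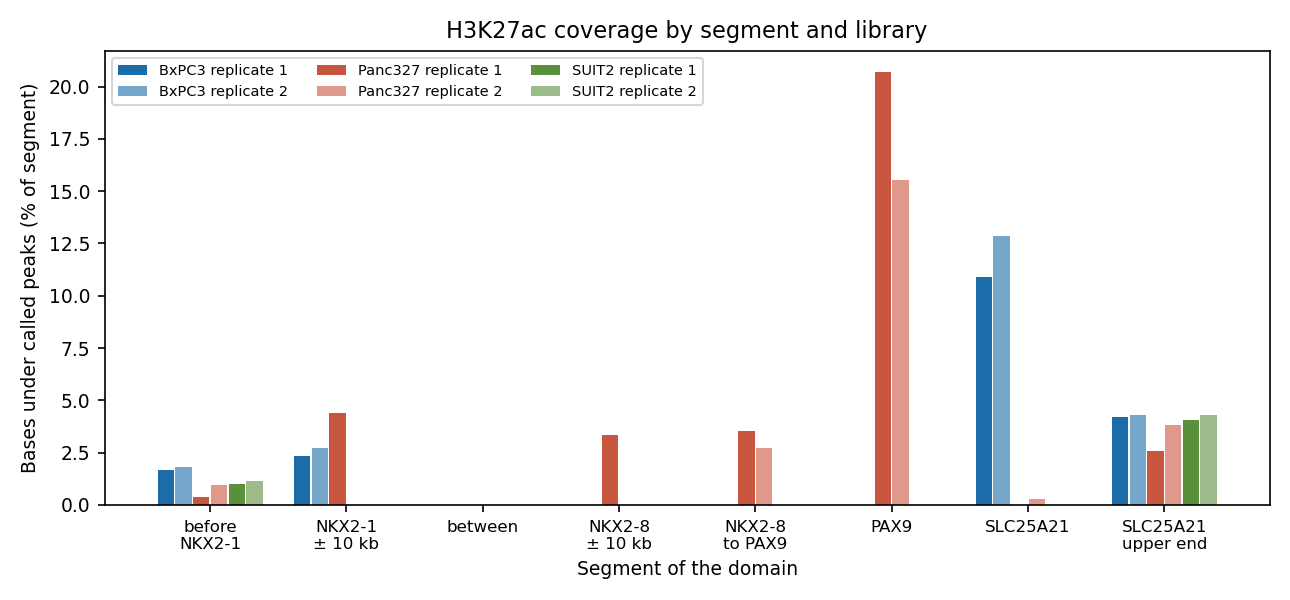
Share of each segment of the domain under called peaks (y axis, percent of the segment's length) for each segment (x axis); each bar is 1 library, the darker shade being replicate 1. PAX9 is covered in Panc327 alone, at 20.7% and 15.6%, and SLC25A21 mainly in BxPC3, at 10.9% and 12.9%.

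The broadest region of BxPC3 alone lay in SLC25A21 at 37441314-37448431 and was 7118 bp wide. Values of a region are the highest of its peaks in a library. The fold was 28.1 in replicate 1 and 52.9 in replicate 2, with 223 and 339 overlapping reads at the summit, and it stood at percentiles 85.5 and 91.7 of those lists. In replicate 2 it was the peak with the highest −log10 q of the domain (310). Together with the region at 37450354-37452966 (folds of 37.4 and 34.7, 170 and 265 reads), it formed the core of a stitched cluster. That cluster spanned 14986 bp with 4 peaks in replicate 1 and 25.1 kb with 5 peaks in replicate 2. By covered bases it ranked 495 among 19753 stitched clusters (2.51%) in replicate 1 and 462 among 21283 (2.17%) in replicate 2.

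Another group of strong BxPC3 regions lay on the PAX9 side of this cluster. The region at 37403962-37407298 had folds of 28.8 and 29.7 and pile-ups of 158 and 272 reads. Its neighbour at 37409482-37415007, 5526 bp wide, was lower, with folds of 9.06 and 14.0 and 83 and 127 reads. Width and height therefore did not go together in these neighbours.

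Further strong regions were spread to either side. The region at 37324739-37327612 had folds of 21.0 and 19.3 (138 and 176 reads), and the one at 37342458-37344967 had folds of 16.9 and 34.9 (156 and 179 reads). Towards the upper end, 37515057-37519138 had folds of 13 and 37.4 (137 and 201 reads). The last of the 8 regions of BxPC3 alone with the most covered bases, 37585017-37587662, had folds of 24.1 and 35.7 (171 and 228 reads). The remaining 19 regions of BxPC3 alone were 302 to 2632 bp wide, with a median fold of 8.79 in replicate 1 (range 6.07 to 21.7) and 10.7 in replicate 2 (6.17 to 32.0).

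Regions called in a single BxPC3 library were weak. The 3 of replicate 1 were 269 to 421 bp wide with folds of 5.4 to 8.62, and the 9 of replicate 2 were 283 to 1105 bp wide with folds of 5.41 to 10.3. All 12 lay in SLC25A21, which held 86.1% and 88.1% of all BxPC3 peaks of the domain in replicates 1 and 2.

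One region in SLC25A21 was shared between lines. At 37235810-37238912 BxPC3 had folds of 27.9 and 24.0 and pile-ups of 147 and 183 reads. Panc327 replicate 2 had 2 peaks in it, one with a fold of 11.4 and 43 reads, at percentile 43.6 of its list, and one with a fold of 9.24 and 47 reads. Panc327 replicate 1 and the SUIT2 libraries had no peak there.

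The upper end of SLC25A21, where the gene starts since it is on the minus strand in RefSeq, was called in every library. The region at 37640833-37642192 had folds of 15.5 and 17.6 for BxPC3, 34.6 and 12.4 for Panc327 and 40.3 and 37.3 for SUIT2. Its summits held 80 and 124 reads for BxPC3, 85 and 54 for Panc327 and 183 and 171 for SUIT2. SUIT2, with no peak in the rest of the gene, had its peak at this end at percentiles 66.6 and 64.7 of its lists. BxPC3, with 31 and 37 peaks in the gene, had it at 54.9 and 61.6, and Panc327 at 57.4 and 52.0.

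The second region called in all libraries lay near the lower edge of the window, at 36787552-36790397, on the MBIP side. Its folds were 50.4 and 57.0 for BxPC3, 60.6 and 22.5 for Panc327 and 36.4 and 40.1 for SUIT2. It was the peak of highest −log10 q of the domain in BxPC3 replicate 1 (217), in both Panc327 libraries (234 and 99.9) and in SUIT2 replicate 2 (237). In SUIT2 replicate 1 the peak at the SLC25A21 end ranked first, with a −log10 q of 236. Between this region and NKX2-1, BxPC3 alone had 2 further regions, both weak, at 36852722-36853023 (folds of 8.79 and 7.42) and 36853475-36854010 (8.16 and 11.3).

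The longest stretch without a peak inside the domain showed the same division. It measured 851 kb in both SUIT2 libraries, 505 and 403 kb in Panc327 replicates 1 and 2, and 195 kb in both BxPC3 libraries. In BxPC3 it ran from 36990452 to 37185437 in replicate 1 and held NKX2-8 and PAX9, whereas in Panc327 replicate 1 it ran from 37136383 to 37641210 and held nearly all of SLC25A21. The PAX9 peaks of Panc327 thus lay in the longest empty stretch of BxPC3.

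Library depth was set beside these counts through the pile-ups. The genome-wide background, the number of reads expected to overlap a base by the peak caller's model, was 1.96 and 2.37 for the BxPC3 libraries, 1.46 and 2.85 for Panc327 and 3.29 and 3.61 for SUIT2. These values are on the peak caller's scale, on which a read counts as 0.752 and 0.652 in BxPC3 replicates 1 and 2. In Panc327 and SUIT2 the pile-ups are whole reads. SUIT2 had the highest background on this scale and the fewest peaks here. The scale differs between lists, so these backgrounds do not rank the libraries by depth. Pile-up on this scale divided by this background is called height below, whereas pile-ups given in reads are not scaled. The lowest height called where the background was at its genome-wide level was 8.42 and 7.43 for BxPC3, 9.60 and 6.66 for Panc327 and 6.08 and 5.82 for SUIT2. The 27 regions of BxPC3 alone had heights, taken in the lower of the 2 libraries, from 9.9 to 85.4 with a median of 24.9. Since they were called in both BxPC3 libraries, their heights were bound to exceed the lowest height called in Panc327 replicate 2 and in SUIT2. Panc327 replicate 1 called no height under 9.60, and the lowest of the 27 was only just above it. The heights compare signal only as far as the libraries were equally enriched: the median height over all peaks was 26.4 and 22.8 for the BxPC3 lists, 46.6 and 19.3 for Panc327 and 29.8 and 26.3 for SUIT2. A lower height can stem from fewer cells with the mark or from less of it per cell, which cannot be told apart.

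**Figure D3:**
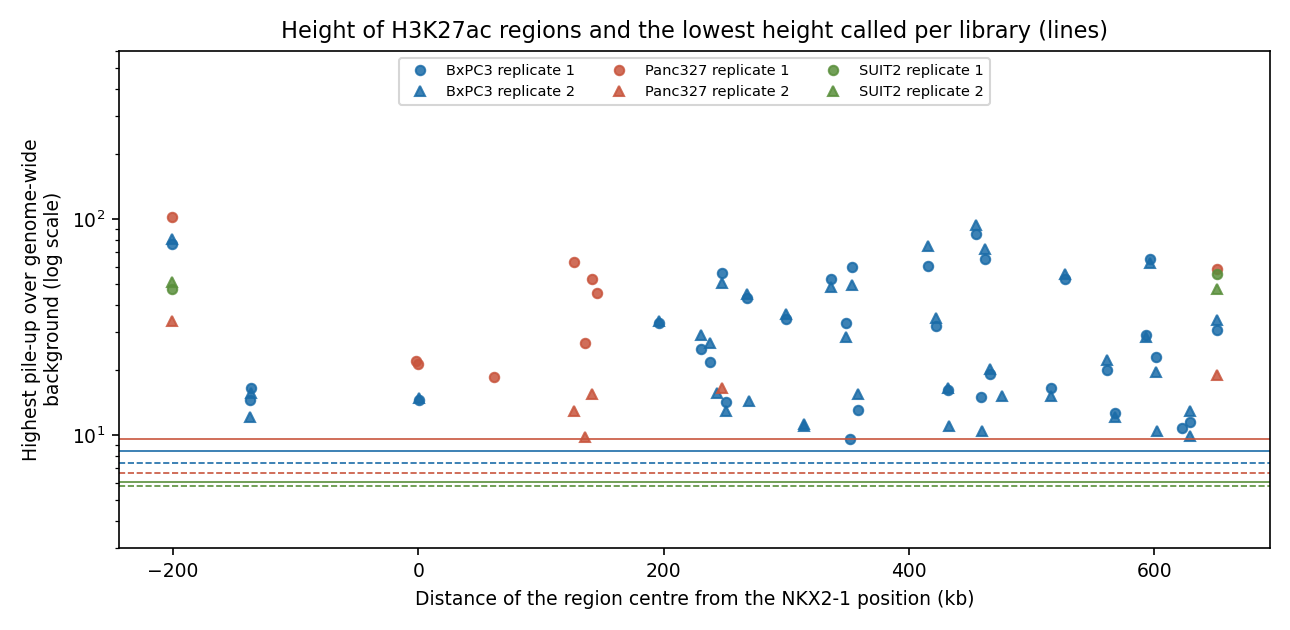
Highest pile-up over the genome-wide background (y axis, log scale) of each region in each library, against the distance of the region's centre from the NKX2-1 position in kb (x axis). Horizontal lines mark the lowest height each library called at the genome-wide background (solid for replicate 1, dashed for replicate 2), from 5.82 to 9.60; the 27 regions of BxPC3 alone had heights of 9.9 or more.

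For Panc327 the heights separated its libraries. The 3 regions of Panc327 alone had heights of 63.1, 26.8 and 52.8 in replicate 1 and of 12.96, 9.81 and 15.4 in replicate 2. Their lower values were above the lowest heights called in BxPC3, 8.42 and 7.43; for SUIT2 this followed from how the regions were chosen. The 4 regions of replicate 1 alone had heights of 18.5 to 45.3. At the 2 regions called in all libraries, replicate 1 had heights of 101.5 and 58.3 and replicate 2 had 33.6 and 18.9. Replicate 2 was thus lower at both shared regions as well as at PAX9, and its median height over the whole list was also lower (19.3 against 46.6).

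The BxPC3 replicates agreed more closely in height than in fold. Over the 30 regions marked in BxPC3, Spearman's rho between replicates was 0.978 for the height and 0.803 for the fold, as a description over regions that share their libraries. The ratio of replicate 2 to replicate 1 ranged from 0.824 to 1.24 for the height and from 0.771 to 3.39 for the fold. In 9 regions the folds differed by more than 1.5 times. The largest gap was at 37289137-37290648, with folds of 7.63 and 25.8 but heights of 34.5 and 36.3. There the local background was 4.08 times the genome-wide level in replicate 1 and 1.00 times in replicate 2. At 37515057-37519138, where folds were 13 and 37.4 and heights 52.5 and 55.3, it was 3.56 and 1.07 times. At both regions the replicates thus differed in background and fold and were close in height.

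**Figure D4:**
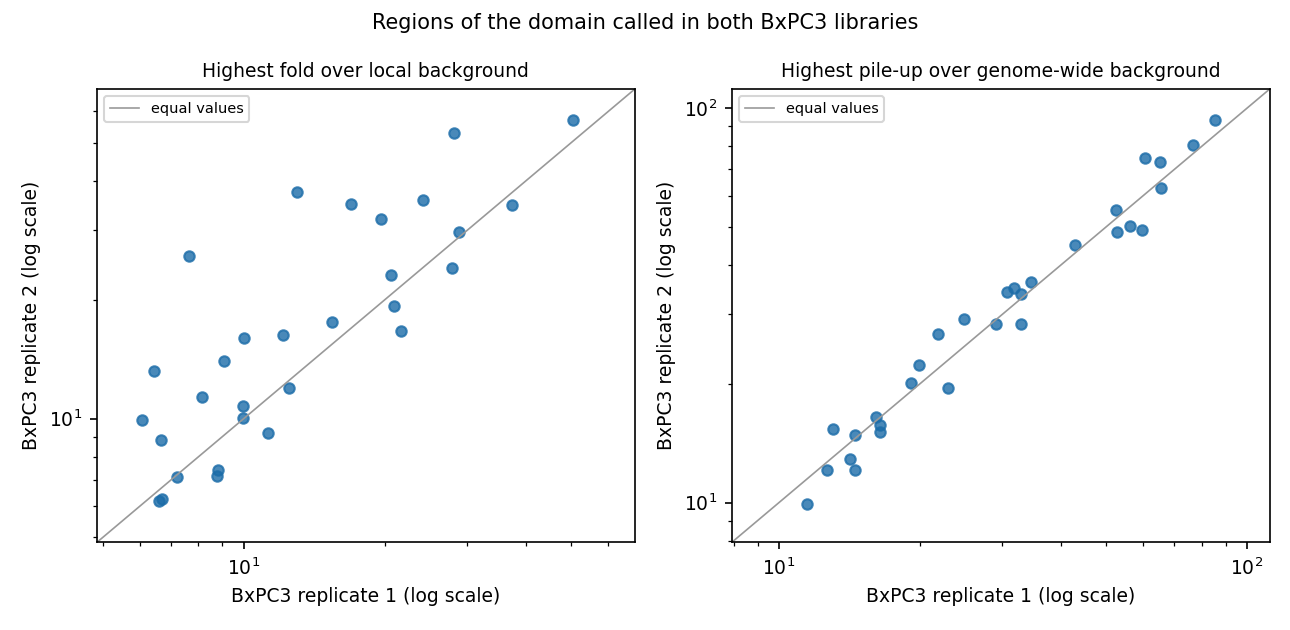
The 30 regions marked in BxPC3, with replicate 1 on the x axis and replicate 2 on the y axis (both log scales), for the highest fold over local background (left) and the highest pile-up over the genome-wide background (right). Each point is a region and the line marks equal values; the points lie closer to the line on the right, with ratios of 0.824 to 1.24, than on the left, with ratios of 0.771 to 3.39.

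The median local background at the domain's peaks was higher in both BxPC3 libraries than in those of the other lines. Relative to the genome-wide level it was 1.55 and 1.27 for BxPC3, 1.02 and 1.21 for Panc327 and 1.04 and 1.00 for SUIT2. Over all BxPC3 peaks on chromosome 14 it was 1.44 and 1.27, and over the whole lists 1.23 and 1.08. For Panc327 the chromosome 14 values were 1.36 and 1.47, and for SUIT2 1 and 1. In BxPC3 the share of peaks at 2 times the level or more was 38.9% and 16.7% in the domain and 17.9% and 8.93% in the lists. It was 0% in the domain for Panc327 and SUIT2, which had only 9, 7, 2 and 2 peaks there. Their lists held 13.9% and 17.8% for Panc327 and 3.79% and 2.04% for SUIT2. The BxPC3 background at the domain was thus above that of the lists and close to that of its chromosome, and its part in the number of BxPC3 peaks was not tested. The background is read only at called peaks and cannot fall under the genome-wide level. A lack of peaks and a loss of DNA in Panc327 or SUIT2 therefore cannot be told apart inside the empty stretches; at both ends of the domain the DNA was present, since both ends carried peaks.

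BxPC3 coverage was higher in the domain, which was chosen by these calls, than in its neighbours. Peaks covered 6.53% and 7.65% of it in the BxPC3 libraries, 0.99% and 1.33% of the 880 kb before it and 3.54% and 3.71% of the 880 kb after it. In Panc327 coverage was 1.099% and 1.08% of the domain, 0.504% and 0.338% before and 0.592% and 0.966% after. In SUIT2 it was 0.36% and 0.406% of the domain, 0.357% and 0.413% before and 1.6% and 1.62% after. SUIT2 coverage of the domain was thus like that of the window before it and below that of the window after it. The window before held 5 regions of BxPC3 alone among 8 marked in BxPC3, and the window after held 7 among 15.

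The edges of the window were not bare. The first peak beyond the upper edge lay 5.67 to 6.75 kb away in every library, with folds of 21.4 and 49.9 for BxPC3, 29.7 and 7.7 for Panc327 and 29.4 and 21.96 for SUIT2. Beyond the lower edge the next BxPC3 peaks were 30.1 and 30.2 kb away, with folds of 9.15 and 6.79, and the next peaks of the other 4 libraries 483 to 484 kb away.

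**Figure D5:**
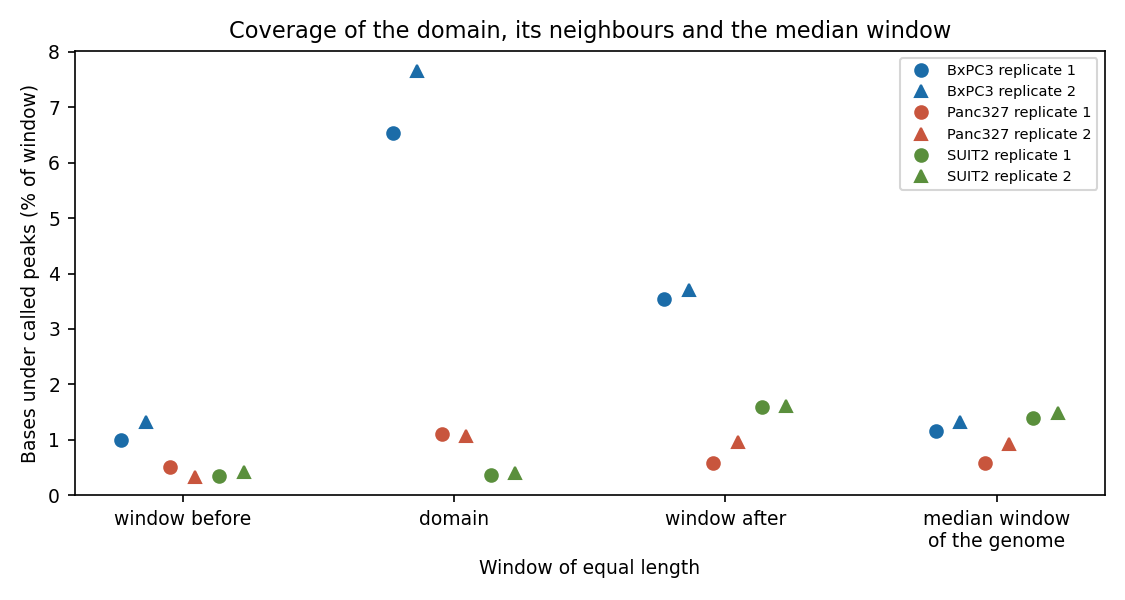
Share of an 880 kb window under called peaks (y axis, percent) for the window before the domain, the domain, the window after it and the median window of the genome (x axis); each point is 1 library. BxPC3 libraries stand at 6.53% and 7.65% in the domain, and SUIT2 libraries at 0.36% and 0.406%, below their median windows of 1.4% and 1.49%.

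Over 3045 other windows of the same length that held any region, the median coverage was 1.16% and 1.32% for BxPC3, 0.579% and 0.926% for Panc327 and 1.4% and 1.49% for SUIT2. The domain was exceeded by 108 and 83 of these windows in BxPC3 (3.55% and 2.73%), by 963 and 1425 in Panc327 and by 2286 and 2261 in SUIT2. None of these windows held more than 20 regions of BxPC3 alone, against 27 in the domain, and the median window held 2. Both rankings are only a description, since the domain was chosen by these calls and the other windows were tiled from chromosome starts. The most regions of BxPC3 alone, 20 among 25 marked in BxPC3, lay on chromosome 20 from 22000001 to 22880000. That window had 0 regions marked in Panc327 and 4 in SUIT2. Chromosome 8 from 31680001 to 32560000 held 19 among 21, with 1 marked in Panc327 and 0 in SUIT2. Chromosome 7 from 16720001 to 17600000 held 19 among 40, with 6 marked in Panc327 and 16 in SUIT2. Covered shares in BxPC3 replicates 1 and 2 were 3.41% and 3.88%, 5.78% and 6.49%, and 5.61% and 6.73% in these windows.

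Agreement between libraries within the domain was measured with the Jaccard index, the bases covered in both libraries over those covered in either. It was 0.755 for the BxPC3 pair, 0.456 for the Panc327 pair and 0.857 for the SUIT2 pair, against 0.814, 0.519 and 0.868 over the genome. Between BxPC3 and Panc327 libraries it was 0.0202 to 0.0713, where the genome gave 0.346 to 0.456. Between BxPC3 and SUIT2 it was 0.0471 to 0.0598 (0.385 to 0.399 over the genome), and between Panc327 and SUIT2 0.13 to 0.278 (0.28 to 0.344). The index cannot exceed the smaller covered length over the larger, which is 0.0471 to 0.0622 between BxPC3 and SUIT2, so these values stand at or near their highest and reflect the difference in covered length. As a share of each list, 96.3 to 100% of the SUIT2 bases and 4.71 to 5.99% of the BxPC3 bases were covered in both. Between BxPC3 and Panc327 the highest possible index is 0.141 to 0.168. The bases covered in both made up 15.7% of those of Panc327 replicate 1 and about 47% of those of replicate 2, and 2.26 to 7.76% of those of BxPC3.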

How the data were processed

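H3K27ac ChIP-seq was analysed in 6 libraries, 2 for each of 3 lines. Per the submitters' processing notes, reads were handled with Bowtie 1.1.1, bcl2fastq 1.8.4 and MACS2 on hg19; settings of the peak caller are not given in the sources used here. The authors deposited 1 peak list per library, not pooled. Each deposited list holds a fold over local background, a −log10 p-value, a −log10 q-value, a score (10 times the −log10 p) and the summit offset; the score was not used. The smallest −log10 p in any list was 10.

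The 10 peaks outside chromosomes 1 to 22 and X were dropped. Peaks sharing at least 1 bp were merged into regions; a region is marked in a line when both libraries have a peak in it. Pile-up and local background were solved from the fold and −log10 p, taken as (pile-up + 1) over (background + 1) and a Poisson tail. This explained 99.9 to 100% of peaks within 0.001, with whole pile-ups in Panc327 and SUIT2 and scales of 0.752 and 0.652 in BxPC3. The genome-wide background is the lowest value of a list. Percentiles rank peaks within a list by −log10 q.

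The members, lists and tests were chosen with earlier results of these data known. The segment bounds of 10 kb around a gene position, the heights and the stitching over 12.5 kb were chosen after the data were seen. Printed in full are regions at the gene positions, the 8 regions of BxPC3 alone with most covered bases, every region called in Panc327 or SUIT2 and the top peak of each library. A planned list of other lineage genes needed gene positions on hg19 and was not analysed here. Alternatives were a −log10 q of at least 20, the same number of peaks (27776) per list, a peak covering 50% of a region, merging within 1 kb, a window shortened by 100 kb at each end, another genome-wide background and leaving out each library. The code was tested on simulated data. Tools were scipy 1.17.1, numpy 2.4.6, matplotlib 3.10.9, pandas 2.3.3 and Python 3.11.15.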

Additional observations from a re-analysis of the deposited data

How the results depend on the processing

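No paired analysis was possible because the results come from no test. At a −log10 q of at least 20 the domain was covered to 6.29% in BxPC3 and 1.04% in Panc327, and SLC25A21 carried 50.4 kb of BxPC3 peaks. With the same number of peaks per list these BxPC3 values were 6.28% and 50.1 kb. Under both, 20 regions of BxPC3 alone were found. Those of Panc327 alone numbered 2 at the stricter −log10 q and 3 with the same number of peaks per list. When a peak had to cover 50% of a region, 1 region was called in all libraries. With peaks within 1 kb merged, 22 regions of BxPC3 alone were found. The window shortened by 100 kb at both ends was covered to 1.07% in Panc327 and 0% in SUIT2, since it leaves out both end regions. Against the median of each list, the local background in replicates 1 and 2 was 1.26 and 1.17 for BxPC3. It was 0.807 and 0.903 for Panc327 and 0.961 and 1 for SUIT2. Leaving out 1 library at a time gave 27 to 39 regions of BxPC3 alone, 3 to 7 of Panc327 alone, 5 to 9 marked in Panc327 and 0 to 1 in BxPC3 and Panc327 without SUIT2. Without Panc327 replicate 2 there were 9 regions marked in Panc327 and 7 of it alone; without Panc327 replicate 1, 1 region was marked in BxPC3 and Panc327 and not in SUIT2. A single remaining library suffices for a mark, which by itself raises such counts. Depth limits what the lists can show: signal under the lowest height called is not detectable.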
